A study of Mus musculus with 468 samples.

Results

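The genes of major histocompatibility complex (MHC) class II were described in the adipose tissue of Diversity Outbred (DO) mice. The 7 genes were taken by their symbols from the deposited expected counts: H2-Aa, H2-Ab1 and H2-Eb1, H2-DMa and H2-DMb1, Cd74 and Ciita. They are 7 of 23180 genes, and all 7 passed the filter on low counts that 18380 genes passed. The DO stock is outbred and descends from several inbred founder strains. All mice of the series ate a high-fat, high-sugar (HFHS) diet with 45 percent fat and gave 1 library each, so every SD below is over mice and holds the error of the assay as well. The labels give 1 group, with no sex, generation, depot or batch, so no groups of mice were tested against each other. Some values are also given apart for libraries with and without Y chromosome counts, as a description.

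MHC class II molecules carry peptides from the endosomes to the cell surface, where CD4 T cells read them. H2-Aa and H2-Ab1 encode the alpha and beta chains of the A molecule, and H2-Eb1 encodes the beta chain of the E molecule. Cd74 encodes the invariant chain, which fills the peptide groove during transport, and H2-DMa and H2-DMb1 encode the chains of the DM molecule, which exchanges the last piece of the invariant chain for a peptide. Ciita encodes the class II transactivator, which binds no DNA itself and is brought to class II promoters by factors that sit on the X and Y boxes. Dendritic cells, macrophages and B cells are the usual sources of these molecules, and interferon gamma raises Ciita in many other cells, adipocytes among them. In a whole tissue, more cells of a type and more RNA per cell cannot be told apart.

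The promoters of H2-Aa and H2-Eb1 are shown because Ciita acts through class II promoters and because H2-Eb1 stood apart in the results below. RefSeq promoter windows (GRCm38.p6) were matched by symbol for 4 of the 7 members, and H2-Ab1, Cd74 and Ciita had no match. Every window was searched on both strands for the X core, ACNGATG, and the Y box, ATTGG. The X core was found in 9.85% of 32851 windows and the Y box in 37.4%, and 0.198% (65 windows) held an X core that began 15 to 40 bases before a Y box on the same strand. The stretches below run 5′ to 3′, end upstream of the transcription start and show X core and Y box letters in capitals. H2-Eb1 lies on the plus strand (chr17:34305727-34305836) and H2-Aa on the minus strand (chr17:34287854-34287963).
H2-Eb1: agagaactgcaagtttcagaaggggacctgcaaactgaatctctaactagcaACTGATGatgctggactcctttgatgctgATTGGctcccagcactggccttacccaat
H2-Aa: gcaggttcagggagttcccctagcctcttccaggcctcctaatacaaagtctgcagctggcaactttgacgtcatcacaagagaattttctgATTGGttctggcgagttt
In H2-Eb1 the X core began 88 bases and the Y box 59 bases before the start, and in H2-Aa only the Y box matched, 48 bases before the start. H2-DMb1 held the pair as well, at 91 and 61 bases, as did its neighbour H2-DMb2, at 120 and 90 bases. H2-DMa had neither in the same stretch of its 2 windows. These are matches of letters, and binding was not measured.

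Cd74 was the most abundant member and Ciita the least. Levels are CPM, counts scaled to the library total after TMM correction, and for comparison between genes they were divided by the summed exon length of the gene in GENCODE M21. The total expected count of a library lay between 35.3 M and 137.8 M, with a median of 82.04 M, and the lowest count of any member in any library was 39, in H2-Eb1. Per kilobase the medians were 179.2 CPM for Cd74, 41.6 for H2-Aa, 38.1 for H2-Eb1, 34.97 for H2-Ab1, 8.26 for H2-DMb1, 3.01 for H2-DMa and 1.01 for Ciita. Cd74 lay above H2-Aa, H2-Ab1 above H2-DMb1, and H2-DMa above Ciita in every library, and H2-DMb1 lay above H2-DMa in all but 1. The middle of this order was not fixed: H2-Aa lay above H2-Eb1 in 54.9% of libraries and H2-Eb1 above H2-Ab1 in 51.7%.

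Each gene varied widely over the mice. Cd74 (ENSMUSG00000024610, chromosome 18) ran from 68.6 CPM through a median of 300.8 to 2051. H2-Aa (ENSMUSG00000036594, chromosome 17) ran from 36.2 through 157.9 to 1137 CPM. H2-Ab1 (ENSMUSG00000073421, chromosome 17) ran from 18.4 through 89.8 to 640.5 CPM.
The highest value was 29.9 times the lowest for Cd74, 31.4 times for H2-Aa and 34.8 times for H2-Ab1. H2-DMa (ENSMUSG00000037649) ran from 2.71 through 10.4 to 59.8 CPM, and H2-DMb1 (ENSMUSG00000079547) from 2.93 through 13.9 to 77.5 CPM. Ciita (ENSMUSG00000022504, chromosome 16) ran from 1.37 through 9.61 to 80.9 CPM.
H2-Eb1 (ENSMUSG00000060586) had by far the longest lower tail: it ran from 0.590 through 73.98 to 1041 CPM, a range of 1765-fold, and its 5th percentile was 3.08 CPM. On GRCm38, H2-DMa (start 34119541, end 34139101), H2-DMb1 (34153072, 34160230), H2-Ab1 (34257689, 34269419), H2-Aa (34282744, 34287823) and H2-Eb1 (34305867, 34316674) lie in this order on chromosome 17, Ciita on chromosome 16 (10480059, 10528418) and Cd74 on chromosome 18 (60803848, 60812652). The SD of log2 CPM was 1.71 for H2-Eb1 and 0.73 to 0.95 for the other 6 members, beside a median of 0.46 over all 18380 genes tested. Mouse DO409 gave the highest value of 6 of the 7 members, and mouse DO150 the lowest of 4.
The counts of 6 members were whole in all libraries, within 1e-06, whereas those of H2-DMb1 were fractional in every library. It has a near-identical neighbour, H2-DMb2, with which reads can be shared, so its values are uncertain. H2-Eb1 overlaps Gm20513, H2-DMa overlaps Brd2 and Gm20493, and Ciita overlaps Dexi in the annotation, and the sources used here do not state whether strand was used in counting.
The adipose label was checked against 8 adipocyte markers, which were all detected, with a summed level of 8072 to 29846 CPM (median 20778).

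**Figure D1:**
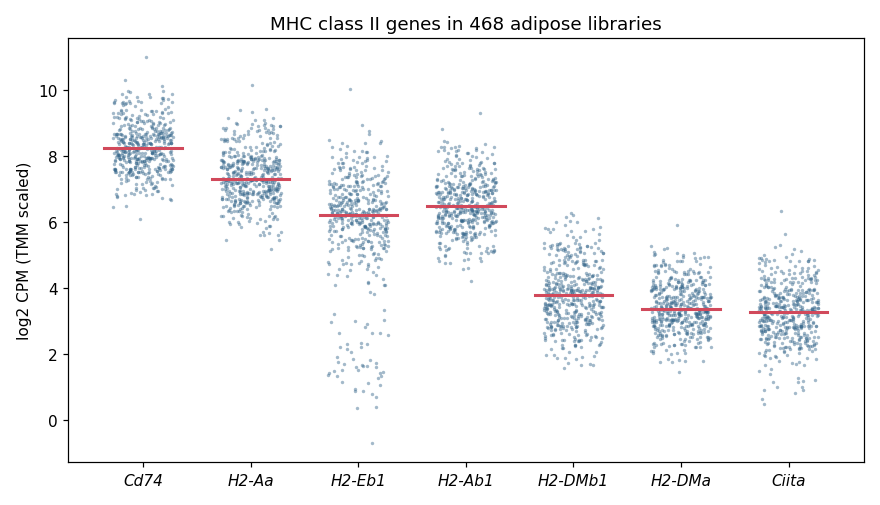
Log2 CPM of the 7 members in all libraries, 1 point per library, with the median as a bar. H2-Eb1 alone has a separate cloud of low libraries under its main cloud, and its SD of 1.71 exceeds the 0.73 to 0.95 of the other 6.

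The first question was how closely the members varied together. Outside H2-Eb1 they formed a tight block: Pearson's r of log2 CPM over all libraries was 0.882 to 0.979 in the 15 pairs of the other 6 members (median 0.926, Spearman's rho 0.876 to 0.976). The highest r, 0.979, belonged to the partner chains H2-Aa and H2-Ab1, and the lowest, 0.882, to H2-DMb1 and Ciita. Each of these pairs had a permutation p of 1e-05 for r and for rho, the smallest that 100000 resamples can give. All 35 relations computed had this smallest permutation p, so its Benjamini-Hochberg adjusted value was fixed at 1e-05 and adds nothing. Without the 2 libraries in which 1 gene of the pair lay farthest from its median, picked for each pair, the 15 values were 0.881 to 0.978. Within 5 blocks of consecutive library numbers the median over the pairs was 0.909 when each pair was taken in its lowest block and 0.942 in its highest, and within 5 blocks of consecutive mouse numbers 0.908 and 0.953. It was 0.928 in the libraries with Y chromosome counts (51.5%) and 0.889 in those without.

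Ciita was then set against every gene tested. The 5 genes with the highest r with Ciita, of 18379, were all members: Cd74 (r = 0.935), H2-Ab1 (0.926), H2-Aa (0.921), H2-DMa (0.920) and H2-DMb1 (0.882). Over all genes the median r with Ciita was 0.00503 and the 95th percentile 0.548. H2-Eb1 lay below that percentile, at 0.455, within the first 9.41% of genes. The macrophage gene Adgre1, which encodes F4/80, and the B cell gene Cd22, an inhibitory receptor, ranked the members lower. With Adgre1, r of the 6 members other than H2-Eb1 was 0.683 (Ciita) to 0.769 (H2-DMb1), within the first 2.12 to 4.24% of genes and beside a 95th percentile of 0.656. With Cd22 it was 0.568 (H2-DMb1) to 0.619 (Ciita), within the first 0.620 to 1.16% of genes and beside a 95th percentile of 0.444. The relation with Adgre1 had a median of 0.577 in libraries without Y chromosome counts and 0.686 in those with, and that with Cd22 of 0.515 and 0.497. In the lowest and highest blocks the medians with Adgre1 were 0.649 and 0.777 by library number and 0.561 and 0.820 by mouse number, and those with Cd22 were 0.349 and 0.685 by library number and 0.504 and 0.711 by mouse number. All values share the same libraries and the same scaling.

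**Figure D2:**
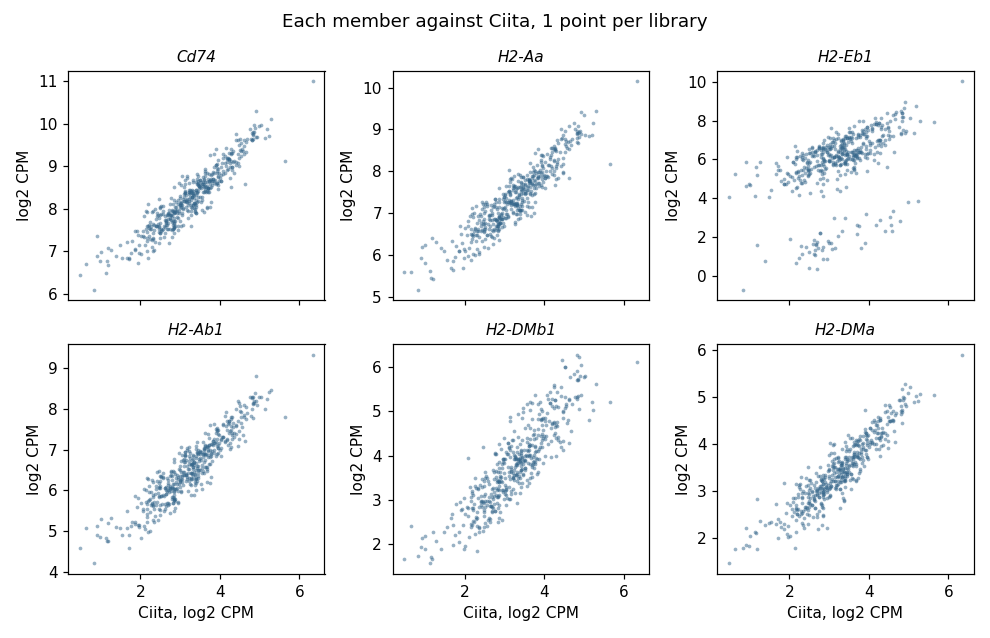
Log2 CPM of 6 members (vertical axes) against log2 CPM of Ciita (horizontal axes), 1 point per library. Cd74, H2-Aa, H2-Ab1, H2-DMb1 and H2-DMa each follow Ciita in a single band, with r from 0.882 to 0.935, whereas H2-Eb1 splits into separate bands.

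To ask how the members followed Ciita beside macrophage and B cell content, Ciita, Adgre1 and Cd22 were entered together in an edgeR quasi-likelihood model fitted to 18377 genes, with Benjamini-Hochberg adjustment over all of them. A coefficient is the log2 change of a gene per SD of log2 CPM of the term. All 6 other members rose with Ciita, where 19.5% of all genes did. The coefficient was 0.69 ± 0.0210 (SE) for H2-Ab1, 0.65 ± 0.0208 for H2-Aa, 0.59 ± 0.0172 for Cd74 and 0.58 ± 0.0183 for H2-DMa. H2-DMb1 had 0.63 ± 0.0276 and H2-Eb1 0.68 ± 0.0773, the widest error of the 6. Adjusted p ran from 3.52e-126 (Cd74) to 2.72e-15 (H2-Eb1). The members thus lay between 1.5-fold and 1.62-fold per SD of Ciita.
With Adgre1, 5 of 6 members rose, against 27.5% of all genes. Their coefficients were a fraction of those for Ciita: 0.09 (H2-Ab1) to 0.13 (Cd74) in 4 of them, with adjusted p from 1.13e-13 to 5.31e-06. H2-DMb1 stood above these at 0.32 ± 0.0257 (adjusted p = 3.84e-29). H2-Eb1 did not pass, at 0.05 ± 0.0736 (adjusted p = 0.519).
With Cd22, 0 of 6 members passed in edgeR, none at an unadjusted p of 0.05 either, against 24.1% of all genes called in either direction. The coefficients lay from -0.02 to 0.04, with adjusted p from 0.400 to 0.958. DESeq2 and limma also called 0 of 6. Under library totals alone Cd74 was called (0.0509, adjusted p = 0.0160), where the median of all genes moved from 0.003 to 0.038. With the scores of the macrophage and B cell lists in place of Adgre1 and Cd22, a setting chosen after the data were seen, H2-DMb1 was called at -0.0486 (adjusted p = 0.0407).
Scaling by library totals alone raised the share of called genes that were higher from 48.1 to 82.3% for Ciita, from 39.7 to 56.5% for Adgre1 and from 53.9 to 92.9% for Cd22.

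**Figure D3:**
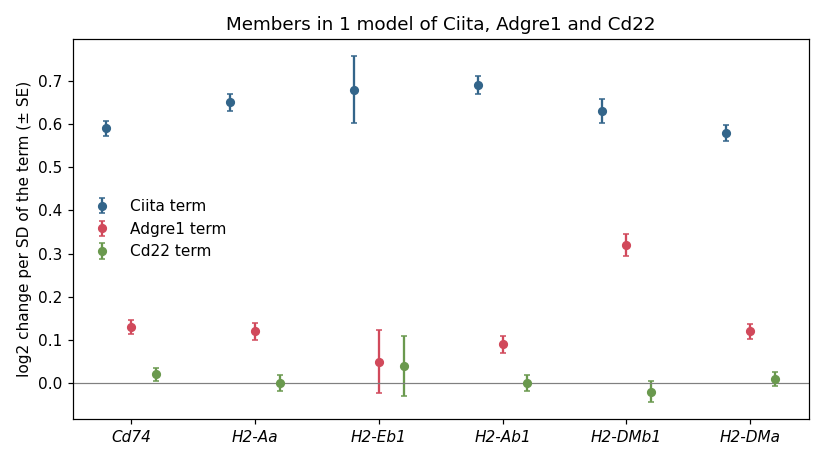
Coefficient of each of 6 members in the model of Ciita, Adgre1 and Cd22 (log2 change per SD of the term, with SE as bars, all libraries). The Ciita term lies at 0.58 to 0.69 in every member, the Adgre1 term at 0.05 to 0.13 except for 0.32 in H2-DMb1, and the Cd22 term around 0.

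Without Ciita in the model, all 7 members rose with both cell genes. With Adgre1 the coefficients were 0.43 (H2-Eb1) to 0.65 (H2-DMb1), against 30.7% of all genes called higher, and Ciita itself had 0.46 ± 0.0319. With Cd22 they were 0.17 (H2-DMb1) to 0.27 (H2-Eb1), against 23% of genes, and Ciita had 0.24 ± 0.0305. Adjusted p from edgeR was at most 3.72e-10 for Adgre1 and 0.000322 for Cd22. The difference between the coefficients of both models was not tested. Here library totals alone raised the share of called genes that were higher from 41.1 to 63.01% for Adgre1 and from 52.4 to 90.5% for Cd22.

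H2-DMb1 and H2-DMb2 encode near-identical DM beta chains. H2-DMb2, which ran from 0.536 through 3.16 to 15.4 CPM, differed from H2-DMb1 in the same model: it rose with Ciita (0.34 ± 0.0368) and Cd22 (0.50 ± 0.0317, adjusted p = 2.56e-42) and fell with Adgre1 (-0.22 ± 0.0348, adjusted p = 1.38e-09). With the counts of both genes summed, an alternative chosen after the data were seen, the coefficients were 0.576 for Ciita, 0.219 for Adgre1 and 0.0905 for Cd22 (adjusted p = 0.000498). The sign for Cd22 was thus opposite to that of H2-DMb1 alone, which had not passed the test (-0.02 ± 0.0240).

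The labels carry a library number and a mouse number, and both were entered as slopes per 100 numbers. With library number, 0 of 7 members passed in edgeR, none at an unadjusted p of 0.05 either and none in limma, against 0.321% of all genes. With mouse number, 6 of 7 rose, by 0.0749 (H2-DMa) to 0.104 (H2-DMb1), with adjusted p of 0.00140 to 0.00569, against 12.9% of genes called higher. H2-Eb1 had 0.0748 ± 0.0399 (adjusted p = 0.151). With Xist and the Y chromosome genes as covariates none of the 7 passed, and the slopes of those 6 were 0.0124 to 0.0311 (adjusted p of 0.389 to 0.738). The mean mouse number was 304.04 ± 153.2 (SD) in libraries with Y chromosome counts and 242.3 ± 147.9 in those without, and its part in this result was not tested. Library totals alone raised the share of called genes that were higher from 52.5 to 63.3% for library number and from 48.96 to 62.4% for mouse number.

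H2-Eb1 was the only member with a stepped distribution over the mice. A mixture of 2 normal components was called where its BIC was lower than that of 1 component by more than 10, the means lay at least 2 SD apart and the smaller component held at least 5% of libraries. On log2 CPM 1 of 7 members was called, against 26% of all genes, and on the residual from Ciita, Adgre1 and Cd22 again only H2-Eb1, against 18.5% of genes. A call by itself is therefore common, and the distance between the components is what was unusual. On log2 CPM the components of H2-Eb1 had means of 1.80 and 6.36, a separation of 4.80 SD, which 1.39% of all genes reached. On the residual the means were -3.91 and 0.49, a separation of 7.06 SD, which 0.316% of genes (58) reached. The lower component held 10.9 and 11.1% of the libraries.

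The steps became clearer once the shared variation was taken out. The remainder of a member is the residual of its log2 CPM after regression on the mean z-score of the other 6 members. Its SD was 1.51 for H2-Eb1 and 0.17 (Cd74) to 0.36 (H2-DMb1) for the others. The 2-component rule found 2 levels in the H2-Eb1 remainder, at -3.91 and 0.49, a separation of 7.38 SD. A mixture with up to 6 components, added after the data were seen, split the H2-Eb1 remainder into 3 levels at -3.91, 0.12 and 1.09, with 11.1, 52.99 and 35.9% of the libraries. The SDs of these components were 0.49, 0.47 and 0.20, so the middle and highest ran into each other and only the lowest stood apart. The middle level lay 4.03 above the lowest (16.3-fold) and the highest 0.96 above the middle (1.95-fold). H2-Eb1 was at 0.590 to 14.7 CPM (median 3.20) in the lowest, 16.9 to 294.4 (median 64.3) in the middle and 37.02 to 1041 (median 117.3) in the highest. No library of the lowest level reached the level of the middle, while the middle and highest overlapped in CPM.
Over all libraries, with these levels mixed, r of H2-Eb1 was 0.490 with Cd74, 0.455 with Ciita, 0.326 with Adgre1 and 0.297 with Cd22. Within the levels, from lowest to highest, its r with Cd74 was 0.840, 0.869 and 0.979 and with Ciita 0.802, 0.838 and 0.930. With Adgre1 it was 0.560, 0.580 and 0.717, and with Cd22 0.570, 0.502 and 0.635. The levels were cut on the remainder of H2-Eb1 from the other members, which by construction narrows the scatter against them in each level, so these values are a description only.
The remainders of H2-Ab1, H2-DMa, H2-DMb1 and Ciita had 1 component each. H2-Aa had 3 and Cd74 had 2, and both had 1 when H2-Eb1 was left out of the predictor. H2-DMb1 then had 2, at -0.107 and 0.495 with 84.8 and 15.2% of the libraries.

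**Figure D4:**
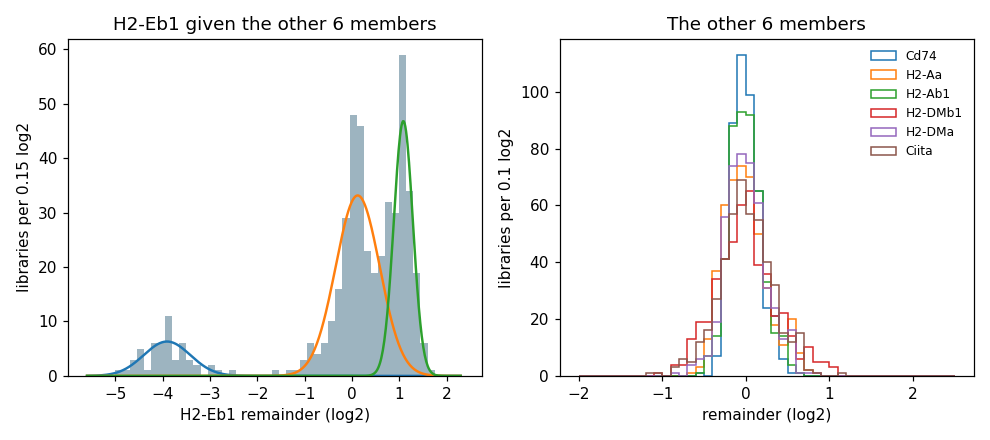
Left, histogram of the H2-Eb1 remainder (log2, all libraries) with the 3 fitted components as curves at -3.91, 0.12 and 1.09. Right, remainders of the other 6 members as step histograms, which have SDs of 0.17 to 0.36 on the same log2 scale and no separate low group.

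The genes most like each remainder were then listed with their place in the genome. For H2-Eb1, 39 of the 50 genes with the largest absolute r lay within 5 Mb of it on chromosome 17, where 1.29% of 14686 genes lie (those whose mean reached 1 CPM). The first 4 were Cyp4f16, a cytochrome P450 gene (r = 0.695, 1.77 Mb proximal), the class I gene H2-D1 (0.668, 0.957 Mb distal), Gm11131 (0.561) and Gm10499 (-0.546). H2-Eb2, the adjacent beta chain gene, was near the floor, with a median of 0.152 CPM, 0 counts in 51 libraries and a highest value of 9.82 CPM. Its r with the H2-Eb1 remainder, -0.135, is uncertain at that level.
Of the other 4 members on chromosome 17, H2-Aa, H2-Ab1 and H2-DMa had many such near genes, fewer once H2-Eb1 was left out of the predictor, and H2-DMb1 had few. For H2-Aa 40 of 50 genes lay within 5 Mb, and 29 without H2-Eb1 in the predictor. For H2-Ab1 they were 35 and 22, and for H2-DMa 23 and 9. H2-DMb1 differed from these with 2 and 2, although it lies between H2-DMa and H2-Ab1. The lists end at unlike values, however. The 50th gene had an absolute r of 0.422 for H2-DMb1, 0.228 for H2-DMa and 0.179 for H2-Aa and H2-Ab1. Without H2-Eb1 in the predictor it was 0.399 for H2-DMb1, 0.197 for H2-DMa, 0.224 for H2-Aa and 0.241 for H2-Ab1. The counts with and without H2-Eb1 are thus not cut at the same r. Near genes with a smaller r could thus not enter the H2-DMb1 list, and its low count does not show that they are lacking. Its first 4 genes were Phf1 (-0.467, 7.22 Mb proximal), the collagen crosslinking gene Lox (0.457, chromosome 18), the adhesion gene Nectin3 (0.456, chromosome 16) and the splicing factor gene Srsf4 (-0.450, chromosome 4).
For H2-Aa the first 4 were Gm10499 (0.557), Cyp4f16 (-0.532), Btnl2 (-0.517) and the class I gene H2-Q2 (0.512). Without H2-Eb1 in the predictor H2-Q2 led at 0.517. For H2-Ab1 they were Btnl2 (-0.456), Tnxa (-0.446), H2-T-ps (-0.420) and H2-Q2 (0.419). Without H2-Eb1, H2-Ea-ps, a polymorphic pseudogene by annotation, led at -0.549. For H2-DMa they were Cyp4f16 (-0.489), Gm11131 (-0.435), H2-D1 (-0.399) and Notch4 (-0.397), and without H2-Eb1 Notch4 led at -0.318.
The members outside chromosome 17 had few near genes in their lists. Of the 50 genes most like the Cd74 remainder 1 lay within 5 Mb of Cd74, where 0.402% of all genes lie. Of those most like the Ciita remainder 0 lay within 5 Mb of Ciita, where 0.259% lie. The 50th gene had an absolute r of 0.213 for Cd74 and 0.264 for Ciita. Near genes with a smaller r could not enter these lists, so the counts do not show that they are lacking. The first 4 for Cd74 were Cyp4f16 (-0.452), H2-D1 (-0.391), Gm10499 (0.369) and Gm8909 (0.362), all on chromosome 17, and without H2-Eb1 in the predictor the first was Bcl2l1 (0.366). For Ciita they were Bcl2l1, which protects cells from apoptosis (-0.408), Fkbp5, a co-chaperone induced by glucocorticoids (-0.394), Fam107a (-0.351) and the autophagy gene Vmp1 (-0.338). Without H2-Eb1 in the predictor the interferon factor gene Irf1 came among the first 4, at 0.346. Genotypes were not analysed here, and a remainder of 1 member holds the noise of the other 6 with the sign turned.

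**Figure D5:**
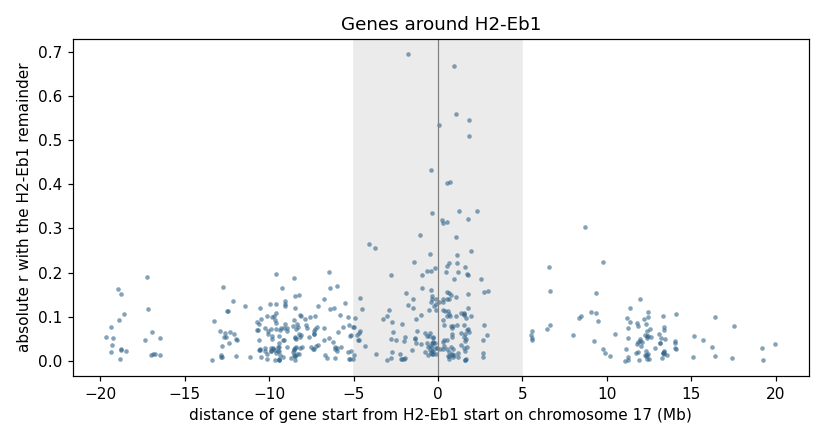
Absolute r with the H2-Eb1 remainder (vertical axis) against the distance of each gene's start from that of H2-Eb1 on chromosome 17 in Mb (horizontal axis), 1 point per gene whose mean reached 1 CPM. The highest points, up to 0.695, stand within the shaded 5 Mb on each side.

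Genes outside the members with the pattern most like theirs were found by r with a class II score, the mean z-score of H2-Aa, H2-Ab1, H2-Eb1 and Cd74, over all libraries and 14686 genes. The 8 highest were Coro1a (0.837), Ptprc, which encodes CD45 (0.833), Sash3 (0.832), Selplg (0.821), Myo1g (0.816), Slamf8 (0.813), Irf8 (0.812) and Arhgap30 (0.812). Without H2-Eb1 in the score they had 0.831 to 0.856. Most are known from white blood cells in general, such as Coro1a, an actin-binding protein, and Selplg, the selectin ligand PSGL-1. Among the 4 lowest were Mmut (-0.722), the mitochondrial protease gene Clpp (-0.700) and Sccpdh (-0.700).

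The rest of the class II pathway was read in the model of Ciita, Adgre1 and Cd22. Over all genes tested, 19.5% rose and 21% fell with Ciita, 27.5% rose and 41.6% fell with Adgre1, and 13% rose and 11.1% fell with Cd22, and the counts of each list below are to be read against these shares. Of 22 listed genes 19 were in the table and tested. With Ciita 12 rose and 0 fell (median 0.071, beside -0.002 over all genes), and with Cd22 9 rose and 0 fell. With Adgre1 8 rose and 7 fell, and the share that fell is near the 41.6% of all genes. The most abundant were the endosomal proteases Ctsl, Lgmn and Ctss and the factor gene Creb1. Ctss, which trims the invariant chain, rose with Adgre1 by 0.95 ± 0.0286 and with Ciita by 0.17 ± 0.0317, whereas Ctsl (0.46 ± 0.0360) and Lgmn (0.64 ± 0.0181) rose with Adgre1 and had 0.04 and 0.01 for Ciita (adjusted p = 0.487 and 0.724).
The genes of the DO molecule, which restrains DM, behaved like H2-DMb2. H2-Ob had 0.35 for Ciita, -0.18 for Adgre1 and 0.57 for Cd22, and H2-Oa had 0.52, -0.18 and 0.44, all with adjusted p of at most 0.00015. These genes and H2-Eb2 were singled out after their values were seen. H2-Oa was low, with a median of 0.425 CPM and 0 counts in 2 libraries, so its values are less certain.
Of the genes for proteins that bind the X and Y boxes, Rfx5 (0.05, adjusted p = 0.00545) and Nfyb (0.03, adjusted p = 0.0125) rose with Ciita, and Rfxank, Rfxap, Nfya, Nfyc and Creb1 did not pass. With Adgre1, Nfya rose (0.11, adjusted p = 6.85e-18), and Rfxank (-0.12, adjusted p = 2.3e-07), Nfyc (-0.08, adjusted p = 3.69e-08) and Rfx5 (-0.07, adjusted p = 2.17e-06) fell.
H2-Ea-ps, annotated as a polymorphic pseudogene, had an r of -0.134 with the H2-Eb1 remainder and was stepped as well. It had 0 counts in 26 libraries, where 3 counts would be 0.0267 to 0.0543 CPM, a median of 27.5 and a highest value of 260.1 CPM, and its 2 components lay at -3.46 and 5.30, with 28.5% of libraries in the lower.

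Of 12 listed interferon gamma response genes 11 were tested, and 10 rose and 1 fell with Ciita (median 0.231), where 19.5% of all genes rose. With Adgre1 3 rose and 6 fell, where 27.5% of all genes rose and 41.6% fell, and with Cd22 2 rose and 3 fell. Among the most abundant were the receptor gene Ifngr1 (-0.06 ± 0.0258, adjusted p = 0.0448), Gbp2 (0.34 ± 0.0256) and the kinase gene Jak2 (0.08 ± 0.0125). Ifng itself had a median of 0.0381 CPM and did not pass the filter. All 11 class I presentation genes rose with Ciita (median 0.176), where 19.5% of all genes did, 3 rose and 6 fell with Adgre1, and 0 rose and 5 fell with Cd22. Tap1, the peptide transporter gene, picked after its value was seen, had 0.36 ± 0.0250.

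Markers of the cells that carry class II were read in the same model. Each r below is that of a single gene with the class II score without H2-Eb1, and the part of these cells in the results was not tested. The 14 macrophage genes summed to 374.6 to 6155 CPM (median 1137), and r was 0.0909 to 0.751 (median 0.693, beside 0.00402 over all genes). Of 13 tested, 13 rose with Adgre1, where 27.5% of all genes did. With Ciita 3 rose and 1 fell, which is near the 19.5% of all genes that rose. The most abundant, Lyz2, Csf1r, Mrc1 and C1qa, had 0.66, 0.48, 0.45 and 0.45 for Adgre1.
The 12 dendritic cell genes summed to 49.7 to 649.9 CPM (median 108.6), and r was -0.370 to 0.762 (median 0.529). With Ciita 8 of 12 rose and 0 fell (median 0.229), with Adgre1 5 rose and 4 fell, and with Cd22 4 rose and 1 fell. Of the 4 most abundant, Itgax (0.31 ± 0.0856) and Cd209a (0.15 ± 0.0531) rose with Ciita, and Clec10a (-0.06) and Zbtb46 (-0.01) did not pass. Itgax, which many macrophages of obese fat also express, rose with Adgre1 by 1.62 ± 0.0747.
The 12 B cell genes summed to 7.46 to 205.9 CPM (median 31.3), with r of 0.308 to 0.715 (median 0.327). All 11 tested rose with Cd22 (median 1.165), 10 of 11 fell with Adgre1, and 1 rose with Ciita. The most abundant beside Cd22 were Cd37 (0.29 ± 0.0177 for Cd22), Bank1 (0.39 ± 0.0291) and Ms4a1 (1.21 ± 0.0359). Cd37 was the 1 gene of this list that rose with Adgre1 (0.38 ± 0.0189), and it had the highest r, 0.715.
Lymph node stroma was represented by 5 of 6 listed genes in the table, which summed to 1.68 to 129.4 CPM (median 26.2). Ccl21a, with a mean of 24.4 CPM, had a lowest value of 6.61e-84 CPM, a fraction of 1 count. Its reads can thus be shared, as in H2-DMb1, and its values are uncertain. Of 4 tested, 2 rose and 1 fell with Ciita and 2 rose with Cd22. Ccl21a (0.35 ± 0.115) and Ccl19 (0.38 ± 0.0879) rose with Ciita, Cxcl13, a chemokine for B cells, rose with Cd22 (0.98 ± 0.0645) and fell with Ciita (-0.32 ± 0.0738), and Clec4g did not pass for any term. Of 9 T cell genes 8 rose and 0 fell with Ciita (median 0.521), 1 rose and 7 fell with Adgre1, and 6 rose and 1 fell with Cd22. No listed marker of these cell types was at 0 in as many as 50% of libraries.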

How the data were processed

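RNA sequencing was measured in adipose tissue, 1 library per mouse. Per the methods of the study, reads of polyadenylated RNA were aligned as single ends to a transcriptome of the founder strains and abundance was estimated with EMASE, run by GBRS (versions not given in the sources used here). Deposited were expected counts per gene, 66.8% of them whole within 1e-06, and a log2-scale table from DESeq2's variance stabilizing transformation (VST). Per the submitters' processing notes the build is GRCm38. The positions deposited with the genes are in megabases, and coordinates were taken from GENCODE M21 with the gene identifiers, of which 99.2% had the same chromosome, start and end.

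Genes with at least 10 counts in 50% of libraries were kept (18380 of 23180). Totals of 35.3 M to 137.8 M were scaled by TMM (0.578 to 1.36), and log2 CPM used a prior count of 2. Depth sets counting error only, and no 2 libraries agreed within sampling noise (closest r = 0.9664). Rounded counts were fitted with edgeR 4.0.16 (glmQLFit, glmQLFTest) over all genes, with limma 3.58.1 and DESeq2 1.42.0 as alternatives, and mixtures with numpy and mclust 6.1.1. A score is a mean of z-scored log2 CPM. The models and the mixture rule were tested on simulated data. The members and gene lists were chosen with earlier results of these data known. Genes were named as follows: the 7 members, Adgre1 and Cd22, the 8 genes most and 4 least like the class II score, the 4 most like each remainder, and up to 4 abundant genes per list. Some genes that this rule names are not reported here. The distance of 5 Mb, the mixture of up to 6 components, the predictor without H2-Eb1, the summed DM beta genes, the list scores as covariates and leaving out 2 libraries with over 15% of counts in CT010467.1 were chosen after seeing the data.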

Additional observations from a re-analysis of the deposited data

How the results depend on the processing

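No paired analysis was possible because the labels give 1 group. The 6 members that rose with Ciita and the 7 that rose with Adgre1 and with Cd22 without Ciita in the model had the same counts under every alternative run for them, namely other scalings, no filter, limma, DESeq2 (model with Ciita only), Xist and Y covariates, library and mouse number covariates, and the 10% of libraries with the lowest depth or the 2 libraries rich in CT010467.1 left out. The stepped members numbered 1 (H2-Eb1) on log2 CPM and on the residual with a separation of 3 SD, a smaller component of 10%, VST values, library totals alone and a prior count of 0.5, and the H2-Eb1 remainder had 3 levels instead of 2 with up to 6 components. With Cd22 beside Ciita, the members called numbered 1 instead of 0 under library totals alone, with list scores as covariates and with H2-DMb1 and H2-DMb2 summed (H2-DMb1 at 0.0905 instead of -0.0206). Under library totals alone the genes called for Cd22 numbered 7748 instead of 4423. For library number the genes called numbered 59, 200 without the filter, 0 in limma on log2 CPM and on VST values, and 32 without the 10% of lowest depth. For mouse number, Xist and Y covariates left 2564 genes of 4837 and 0 members of 6. Within 10 Mb instead of 5 Mb, 45 of the 50 genes most like the H2-Eb1 remainder were near it. The cause of these changes was not tested.

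The median r of the 15 pairs was 0.926. It was 0.940 under library totals alone, 0.907 given Xist and Y, 0.889 in libraries without Y counts, 0.909 to 0.942 over library number blocks and 0.908 to 0.953 over mouse number blocks. With Adgre1 it was 0.711, and 0.768, 0.630, 0.577, 0.649 to 0.777 and 0.561 to 0.820 in the same order. With Cd22 it was 0.591, and 0.657, 0.505, 0.515, 0.349 to 0.685 and 0.504 to 0.711, with 0.497 in libraries with Y counts. The 1 group has no replicate libraries, sex, depot and batch are not in the labels, and the counts of H2-DMb1 depend on how shared reads were divided.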
